A study of Homo sapiens with 8 samples.

Results

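OTX1, OTX2, ZIC1, ZIC2, ZIC4 and ZIC5 are 6 developmental transcription factor genes, described here by their transcripts in human embryonic stem cells (hESCs) given an antibody against MFGE-8. They were taken by symbol from the 62086 gene identifiers of the count table, and 5 of the 6, all but ZIC4, were past the filter on low counts that left 20165 genes. The cells were the single hESC line BG01, grown in mTeSR medium. For 12 or 24 h the cells received anti-M8nAb, an antibody that neutralises the secreted glycoprotein MFGE-8, or control IgG from mouse, each at 5 µg/mL. The design has 4 groups, and each of them (anti-M8nAb and IgG at 12 h, anti-M8nAb and IgG at 24 h) had 2 libraries, 8 in all. The groups shared the cell line and medium. The labels call the 2 libraries of a group biological replicates without saying whether they were separate cultures, and p-values cover no more than how far these libraries varied.

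OTX1 and OTX2 encode homeodomain proteins of the orthodenticle family, which in vertebrate embryos pattern the forebrain and midbrain. OTX2 also acts in the epiblast, where in mouse it works with POU5F1 as cells leave the naive state for the primed state that hESCs resemble. The ZIC genes encode zinc finger proteins related to the GLI factors of Hedgehog signalling. They act in the early neural plate, its border and the cerebellum, and ZIC2 is also transcribed in pluripotent cells.

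A library held 21010400 to 21792716 counts over genes. Levels in CPM are counts of a gene relative to its library's total times a TMM scaling factor. The 7 markers of pluripotent cells (POU5F1, NANOG, SOX2, LIN28A, DPPA4, TDGF1 and DNMT3B) summed to 5100 to 6300 CPM in every library and all 7 were past the filter. Their sum was higher with anti-M8nAb, at 6290 to 6300 CPM against 5710 to 5860 CPM with IgG at 12 h and at 5580 to 5690 CPM against 5100 to 5140 CPM at 24 h. The 7 did not all go with the sum. At 12 h the means of SOX2 (246 against 257 CPM) and DNMT3B (1340 against 1380 CPM) were lower with anti-M8nAb and those of the others were higher. At 24 h the means of POU5F1, LIN28A, DPPA4 and TDGF1 were higher with anti-M8nAb. Those of NANOG (89.6 against 106 CPM), SOX2 (200 against 240 CPM) and DNMT3B (1030 against 1080 CPM, libraries overlapping) were lower. The 5 neural ectoderm markers, 4 of them past the filter, summed to 201 and 221 CPM with anti-M8nAb at 12 h, against 180 and 184 CPM with IgG, and to 235 and 261 CPM with anti-M8nAb at 24 h, against 170 and 179 CPM with IgG. Nearly all of this sum was NES, with means of 203 CPM with anti-M8nAb and 180 CPM with IgG at 12 h and of 243 and 172 CPM at 24 h. SOX1, another of the 5, had means of 0.999 CPM with anti-M8nAb and 0.230 CPM with IgG at 12 h, and of 0.170 and 0.574 CPM at 24 h. The sum of the 6 fibroblast markers, most of it THY1, was also higher, at 542 to 577 CPM with anti-M8nAb against 506 CPM in each IgG library at 12 h and at 652 to 677 CPM against 575 to 594 CPM at 24 h, with 3 of the 6, COL3A1, DCN and LUM, under 1 CPM in every library. COL1A2 went the other way, with means of 33.9 against 51.4 CPM at 12 h and 31.2 against 66.5 CPM at 24 h. COL1A1 had means of 63.5 against 65.5 CPM at 12 h and 83.0 against 78.7 CPM at 24 h. The 5 endoderm markers summed to 5.79 to 8.54 CPM with anti-M8nAb against 3.82 to 4.83 CPM with IgG at 12 h and to 7.89 to 7.93 CPM against 3.92 to 5.55 CPM at 24 h. Most of this rise was CXCR4, with means of 4.13 against 2.09 CPM at 12 h and 6.62 against 1.68 CPM at 24 h. FOXA2 had means of 2.62 against 2.14 CPM at 12 h, and went the other way at 24 h, with 0.682 against 2.81 CPM. The sum of the 5 trophoblast markers, nearly all KRT7, was lower with anti-M8nAb, at 16.0 to 16.3 CPM against 18.5 to 20.2 CPM at 12 h and 18.0 to 19.5 CPM against 20.1 to 20.9 CPM at 24 h. GATA3 went the other way, with means of 1.09 against 0.115 CPM at 12 h and 1.53 against 0.199 CPM at 24 h. CDX2 and TFAP2A, under 1 CPM in every library, also had higher means with anti-M8nAb at both times. The sums of the 5 neural crest markers, nearly all FOXD3, and of the 5 mesoderm markers overlapped at 12 h and were lower with anti-M8nAb at 24 h, at 23.0 to 23.7 CPM against 29.7 to 36.2 CPM and at 1.80 to 2.39 CPM against 2.86 to 4.26 CPM. At 24 h the means of FOXD3, SOX10, MIXL1 and TBX6 were lower. PAX3 (0.877 against 0.199 CPM) and TBXT (0.511 against 0.155 CPM) went the other way, as did TFAP2A, MESP1 and HAND1, all under 1 CPM in every library. The part of these markers in the results was not tested. In these bulk libraries, a different share of cells with a transcript and a different amount per cell cannot be told apart.

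OTX2, ZIC5 and ZIC2 carried nearly all transcripts of the 6 genes. ZIC2 lay above its IgG libraries at both times. OTX2 and ZIC5 lay above IgG after 12 h of anti-M8nAb and below it after 24 h. OTX1 and ZIC1, which were barely transcribed, lay above IgG at both times, and ZIC4 was close to absent. A gene was called at a Benjamini-Hochberg adjusted p under 0.05 in edgeR's quasi-likelihood F test over all 20165 genes. The 6 genes were chosen by their measured differences between anti-M8nAb and IgG at 12 and 24 h in these libraries, so that response is given as levels, log2 fold changes and standard errors, with no p.

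OTX2, the orthodenticle gene of the epiblast and anterior neuroectoderm, lies on chromosome 14 of GRCh38 from 56799905 to 56816693 on the minus strand. It had 90.5 and 93.6 CPM after 12 h of anti-M8nAb, against 53.3 and 59.6 CPM after IgG. After 24 h the levels were 42.3 and 40.6 CPM with anti-M8nAb, against 60.7 and 59.0 CPM with IgG. The highest and the lowest levels among the 8 libraries were thus both in cells given anti-M8nAb, and the libraries of the treatments did not overlap at either time. The log2 fold change was 0.71 (SE 0.07) at 12 h and -0.53 (SE 0.08) at 24 h. Between the times the response differed by -1.24 (SE 0.11) on the log2 scale. With any 1 library left out, the values ran from 0.63 to 0.80 at 12 h and from -0.56 to -0.50 at 24 h.

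ZIC5, a zinc finger factor of the neural plate and its border, lies on chromosome 13 from 99962964 to 99971767 on the minus strand. Its levels at 12 h were 92.2 and 95.2 CPM with anti-M8nAb, against 80.9 and 83.1 CPM with IgG. At 24 h they were 56.7 and 53.2 CPM with anti-M8nAb, against 107 and 108 CPM with IgG. The gap at 24 h was many times the distance between replicates, and the one at 12 h was small though the libraries stayed apart. The log2 fold change was 0.19 (SE 0.07) at 12 h and -0.97 (SE 0.07) at 24 h, a difference of -1.16 (SE 0.09) between the times. With any 1 library left out, the values ran from 0.17 to 0.22 at 12 h and from -1.02 to -0.93 at 24 h.

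ZIC2, whose loss of function in humans causes holoprosencephaly, starts 10017 bases from ZIC5 on the opposite strand of chromosome 13, from 99981784 to 99986765. It had 378 and 361 CPM with anti-M8nAb at 12 h, against 279 and 280 CPM with IgG. After 24 h ZIC2 had 330 and 325 CPM with anti-M8nAb, against 231 and 243 CPM with IgG. Every anti-M8nAb library lay above every IgG library of either time. The log2 fold change was 0.40 (SE 0.05) at 12 h and 0.47 (SE 0.05) at 24 h, and the difference between the times was 0.07 (SE 0.07). Without 1 library the values were 0.37 to 0.44 at 12 h and 0.42 to 0.51 at 24 h.

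OTX1, which acts in the cortex and inner ear, lies on chromosome 2 from 63050057 to 63057836 on the plus strand. At 12 h it had 2.70 and 1.98 CPM with anti-M8nAb, against 1.24 and 1.66 CPM with IgG. OTX1 at 24 h had 3.02 and 3.65 CPM with anti-M8nAb, against 1.91 and 1.67 CPM with IgG. The libraries did not overlap at either time, but each value rests on only 27 to 75 counts. The log2 fold change was 0.69 (SE 0.31) at 12 h and 0.89 (SE 0.29) at 24 h. Without 1 library it ran from 0.45 to 0.92 at 12 h and from 0.75 to 1.03 at 24 h.

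ZIC1, a factor of the dorsal neural tube and cerebellar progenitors, lies on chromosome 3 from 147393422 to 147510293 on the plus strand. It had 2.01 and 1.40 CPM with anti-M8nAb at 12 h, against 0.461 and 0.736 CPM with IgG, and the counts were 41 and 29 against 10 and 16. At 24 h it had 0.730 and 1.22 CPM with anti-M8nAb, against 0.444 and 0.352 CPM with IgG, with counts of 15 and 25 against 10 and 8. The anti-M8nAb libraries were above the IgG libraries at both times, at a level close to the filter, which ZIC1 passed through the anti-M8nAb groups. The log2 fold change was 1.50 (SE 0.46) at 12 h and 1.28 (SE 0.52) at 24 h. Without 1 library the values ran from 1.21 to 1.88 at 12 h and from 0.87 to 1.60 at 24 h.

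ZIC4, which neighbours ZIC1 on chromosome 3 from 147386046 to 147406809 on the minus strand and shares 176 bases of exon with it, was below the filter. Its counts were 6 and 2 with anti-M8nAb at 12 h, against 7 and 2 with IgG. At 24 h they were 4 and 4 with anti-M8nAb, against 12 and 6 with IgG. The ratio of summed counts, scaled to library size, was 0.939 at 12 h (95% exact interval 0.315 to 2.74, counting error only) and 0.489 at 24 h (0.184 to 1.18). A difference was not detectable at this depth.

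**Figure D1:**
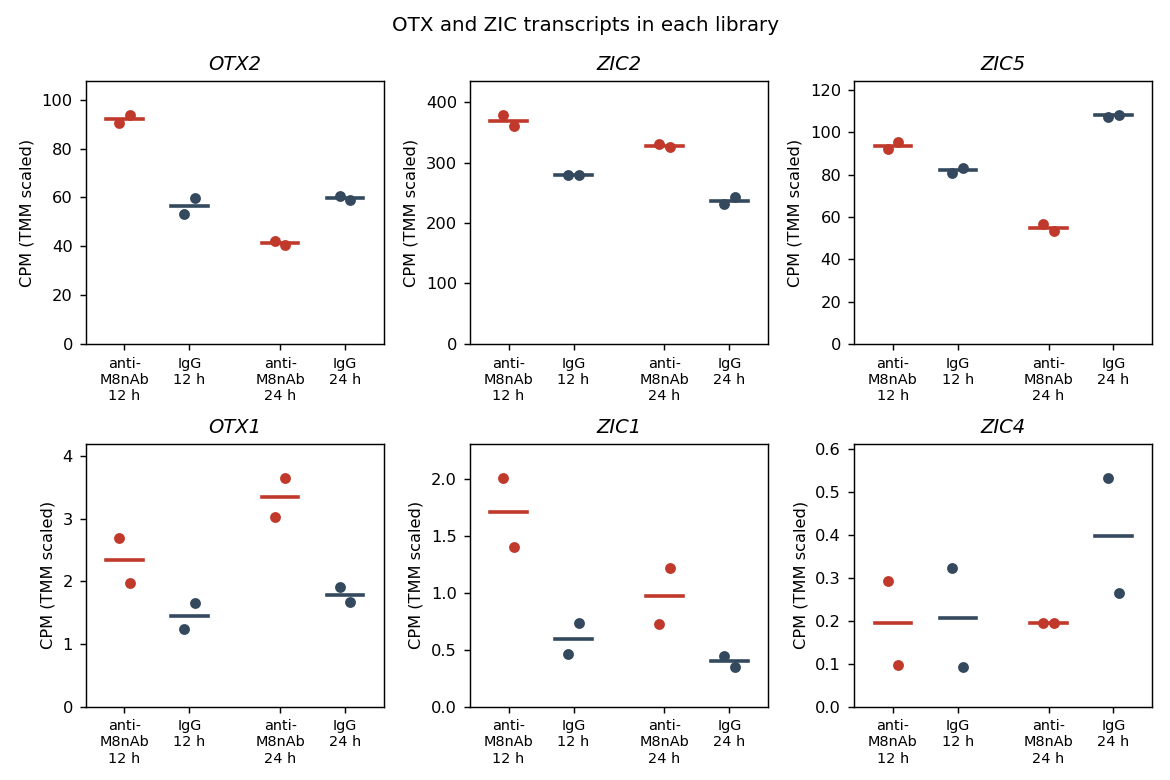
Levels of the 6 genes in CPM, scaled by TMM, on linear axes from 0 that differ between panels. Points are libraries and bars are means of 2 libraries (red, anti-M8nAb; dark blue, IgG). OTX2 is highest with anti-M8nAb at 12 h (90.5 and 93.6 CPM) and lowest with anti-M8nAb at 24 h (42.3 and 40.6 CPM), whereas the ZIC2 libraries with anti-M8nAb lie above those with IgG at both times.

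At 12 h, 4 of the 5 genes past the filter were called higher and 0 lower, and at 24 h 3 were called higher and 2 lower. Of all genes tested, 32.2% were called at 12 h (15.8% higher, 16.4% lower) and 42.5% at 24 h (21.2% higher, 21.3% lower). All 5 had libraries that did not overlap at each time, as had 66.3% of all genes at 12 h and 69.0% at 24 h. The difference between the responses was called for 2 of the 5, OTX2 and ZIC5, both lower, beside 12.3% of all genes (6.54% lower). These counts describe genes picked for this response, and nothing is read from them. Several of the calls did not hold with 1 library left out. That of ZIC5 at 12 h was lost when any 1 of the 4 libraries of that time was left out (0.17 to 0.22), and that of OTX1 at 24 h without the second IgG library (0.80) or the second anti-M8nAb library (0.75). For ZIC1 the call at 12 h was lost without the first IgG library (1.21) or the first anti-M8nAb library (1.22), and at 24 h without the first IgG library (1.44), the second IgG library (1.12) or the second anti-M8nAb library (0.87).

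**Figure D2:**
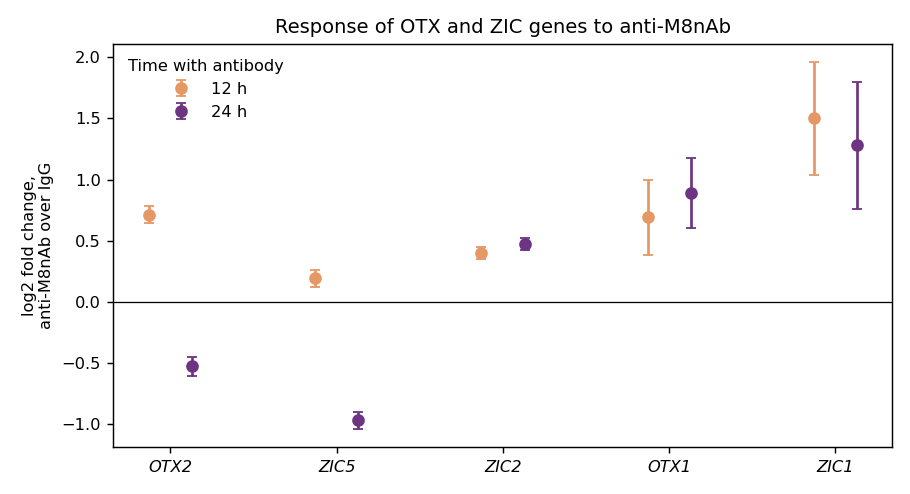
Log2 fold change of anti-M8nAb over IgG at 12 and 24 h for the 5 genes past the filter. Points are fitted values and bars are standard errors. OTX2 (0.71 and -0.53) and ZIC5 (0.19 and -0.97) lie on opposite sides of 0 at the times, ZIC2 (0.40 and 0.47) stays above 0, and OTX1 and ZIC1 have the widest errors.

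The time in culture alone was not the contrast that chose the genes, but the levels of the IgG libraries entered that choice. The calls of the 5 genes are therefore a description, given with no p, and nothing is read from them. Between 24 and 12 h with IgG, ZIC5 was called higher, by 0.39 on the log2 scale (SE 0.06). ZIC2 was called lower, by 0.24 (SE 0.05), and each had no overlap between the times. OTX2 was not called, at 0.08 (SE 0.07), nor were OTX1 (0.30) and ZIC1 (-0.58). Thus 1 of the 5 genes rose and 1 fell, beside 13.7% of all genes called (7.01% higher, 6.64% lower). The libraries of the times did not overlap in 4 of the 5, nor in 54.9% of all genes. The calls of ZIC5 (0.38 to 0.42) and ZIC2 (-0.27 to -0.19) held with any 1 library left out, although the number of genes called in this comparison ran from 928, without the second IgG library at 12 h, to 2929, beside 2753 with all libraries. It was 1263 without the first IgG library at 12 h and 1519 without the second at 24 h.

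Between 24 and 12 h with anti-M8nAb, OTX2 differed by -1.15, ZIC5 by -0.77 and ZIC2 by -0.17 on the log2 scale, and 3 of the 5 genes were called lower, beside 31.9% of all genes called (15.7% lower). This contrast uses the anti-M8nAb libraries whose levels chose the genes, so these calls are a description and nothing is read from them. The call of ZIC2 was lost without the first anti-M8nAb library at 12 h (-0.13) or the second at 24 h (-0.16). ZIC5 stood higher at 24 h than at 12 h in the IgG libraries and lower in the anti-M8nAb libraries, while ZIC2 stood lower at 24 h in each.

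Levels were compared between genes per length, in FPKM (fragments scaled to transcript length and library size) as deposited. ZIC2 was the most abundant of the 6 in every library, with a mean of 109 FPKM in anti-M8nAb cells and 85.9 FPKM in IgG cells at 12 h. At 24 h the means were 97.4 FPKM with anti-M8nAb and 74.8 FPKM with IgG. It ranked between 350 and 545 of the 20165 genes. Together the 6 genes summed to 157 and 155 FPKM with anti-M8nAb at 12 h, against 121 and 123 FPKM with IgG. At 24 h the sums were 123 and 121 FPKM with anti-M8nAb, against 116 and 120 FPKM with IgG, so the treatments lay closer in this sum at 24 h than at 12 h. ZIC2 made up 69.0 to 71.4% of the sum in all 4 libraries at 12 h. At 24 h it made up 79.6 and 80.0% with anti-M8nAb, against 62.4 and 63.8% with IgG.

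OTX2 and ZIC5 followed ZIC2, and their order depended on the group. OTX2 stood above ZIC5 with anti-M8nAb at 12 h (26.3 and 20.2 FPKM) and below it with IgG at 12 h (16.8 and 18.4 FPKM) and at 24 h (18.3 and 24.9 FPKM). With anti-M8nAb at 24 h the levels overlapped, at a mean of 11.9 FPKM each. OTX1 came next of the 6 (0.303 to 0.675 FPKM as group means), then ZIC1 (0.0606 to 0.242 FPKM) and ZIC4 (0.0222 to 0.0486 FPKM). The libraries of neighbours in this order did not overlap, except OTX2 and ZIC5 with anti-M8nAb at 24 h and ZIC1 and ZIC4 with IgG at 24 h. CRX, the photoreceptor member of the OTX family, had at most 2 counts in any library.

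The ratio of ZIC2 to its neighbour ZIC5 differed between the treatments at each time. With anti-M8nAb it was 5.60 and 5.18 at 12 h, against 4.72 and 4.60 with IgG. At 24 h it was 7.97 and 8.36 with anti-M8nAb, against 2.94 and 3.07 with IgG. OTX2 over ZIC5 averaged 1.30 ± 0.00128 with anti-M8nAb and 0.910 ± 0.0555 with IgG at 12 h (SD, n = 2 each). At 24 h it was 0.987 and 1.01 with anti-M8nAb, against 0.748 and 0.723 with IgG, so it stood higher with anti-M8nAb at each time with no overlap. OTX2 over OTX1 was 19.9 and 15.8 with anti-M8nAb at 24 h, against 45.2 and 50.1 with IgG, and the libraries at 12 h ran from 47.7 to 67.3.

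**Figure D3:**
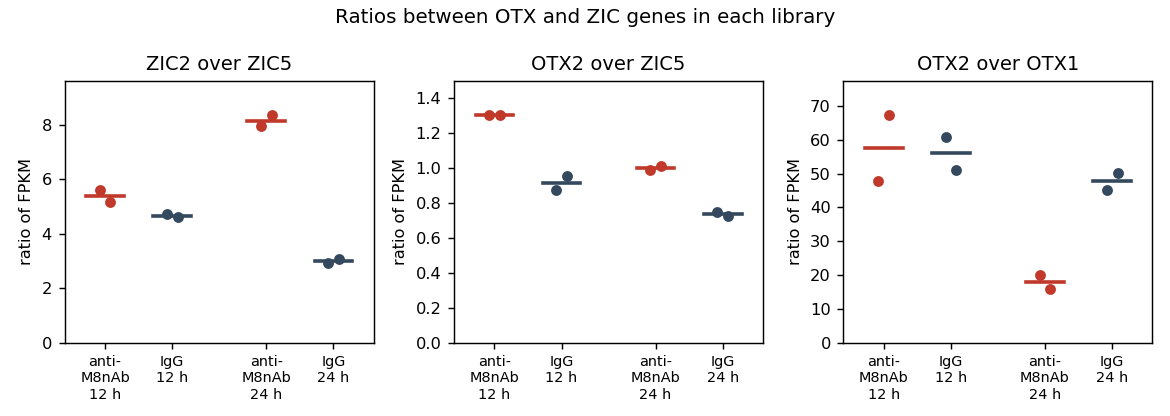
Ratio of FPKM between pairs of the 6 genes in each library, on linear axes from 0. Points are libraries and bars are means of 2 libraries (red, anti-M8nAb; dark blue, IgG). ZIC2 over ZIC5 reaches 7.97 and 8.36 with anti-M8nAb at 24 h, against 2.94 and 3.07 with IgG, while OTX2 over OTX1 is 19.9 and 15.8 with anti-M8nAb at 24 h, against 45.2 and 50.1 with IgG.

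The sequences before the start sites of ZIC2, ZIC5 and OTX2 are shown because ZIC2 and ZIC5 share a locus but differed in direction at 24 h, and OTX2 and ZIC5 lie on different chromosomes and had responses of the same sign at each time. They are the 250 bases before a RefSeq start site on GRCh38.p14, written 5′ to 3′ on the strand of the gene, with each CpG in capitals. Where RefSeq gave several starts for a gene, the stretch farthest upstream is shown. None holds a base of an exon in GENCODE v44. The OTX2 stretch lies inside the OTX2 gene body given above, downstream of the gene's start there, whereas those of ZIC2 and ZIC5 lie outside their gene bodies. The stretches are chr13:99981534-99981783 on the plus strand for ZIC2, chr13:99971910-99972159 on the minus strand for ZIC5 and chr14:56810480-56810729 on the minus strand for OTX2.
ZIC2: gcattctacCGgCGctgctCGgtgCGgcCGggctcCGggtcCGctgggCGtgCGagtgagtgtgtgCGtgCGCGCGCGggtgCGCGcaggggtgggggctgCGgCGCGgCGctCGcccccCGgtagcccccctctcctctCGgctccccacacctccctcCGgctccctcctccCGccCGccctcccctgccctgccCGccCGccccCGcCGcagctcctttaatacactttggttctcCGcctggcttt
ZIC5: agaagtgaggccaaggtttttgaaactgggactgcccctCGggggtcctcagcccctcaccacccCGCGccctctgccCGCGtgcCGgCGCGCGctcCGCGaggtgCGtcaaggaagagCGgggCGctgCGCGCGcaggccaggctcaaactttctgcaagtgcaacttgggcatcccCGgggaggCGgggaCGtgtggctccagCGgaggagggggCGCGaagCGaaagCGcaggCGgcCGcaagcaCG
OTX2: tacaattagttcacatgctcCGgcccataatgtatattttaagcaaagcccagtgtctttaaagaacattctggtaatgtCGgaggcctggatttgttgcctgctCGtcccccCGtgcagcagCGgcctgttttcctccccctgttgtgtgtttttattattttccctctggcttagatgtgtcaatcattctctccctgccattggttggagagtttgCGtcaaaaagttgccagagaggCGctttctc
The ZIC2 stretch has 75.6% G and C and 31 CpG and the ZIC5 stretch 70.4% and 28 CpG. The OTX2 stretch has 47.2% and 7 CpG. Over the 35116 stretches of all genes the median was 58.0% and 11 CpG, so the shown stretches of ZIC2 and ZIC5 held more CpG than the median and that of OTX2 fewer. RefSeq gave 12 such stretches for the 6 genes. The other ZIC5 stretches had 12 CpG, close to the median, and 21 CpG, and the other OTX2 stretch had 4. The letters TAATCC, to which OTX proteins bind, CCTGCTG, a core of ZIC binding sites, and GACCACCC, to which GLI and ZIC proteins bind, were searched on both strands. TAATCC was found in 5.62% of all stretches, CCTGCTG in 8.48% and GACCACCC in 0.849%. None of the 12 stretches held any of them, which says only that these letters are not in these windows.

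Neighbouring genes were taken from the annotation within 100 kb of the 6 genes, 23 in all, of which 8 were past the filter. ENSG00000288060, a long non-coding RNA between ZIC5 and ZIC2, was not called at 12 h (log2 fold change 0.49, adjusted p = 0.31) or at 24 h (0.47, adjusted p = 0.254). ENSG00000286757, which lies beyond ZIC5, was not called either (0.60, adjusted p = 0.0662, and 0.25, adjusted p = 0.46), but was called at 12 h without the first anti-M8nAb library (0.81). On the other side, beyond ZIC2, the non-coding PCCA-DT fell by 0.79 at 24 h (adjusted p = 5.44e-05), where its call held with any 1 library left out. At 12 h it fell by 0.45 (adjusted p = 0.0171), a call lost without the first IgG library (-0.48), the second (-0.41) or the first anti-M8nAb library (-0.40). CLYBL, a mitochondrial lyase gene, was called at neither time. Near OTX1, EHBP1, an adaptor of endocytic trafficking, fell by 0.23 at 12 h (adjusted p = 0.017), a call lost without the first IgG library (-0.26), the second (-0.19) or the second anti-M8nAb library (-0.18). At 24 h EHBP1 fell by 0.22 (adjusted p = 0.0172), a call lost without the first IgG library (-0.17) or the second anti-M8nAb library (-0.14). WDPCP, a ciliogenesis gene, was at 0.02 at 12 h and rose by 0.47 at 24 h (adjusted p = 0.000672). EHBP1-AS1 near OTX1 and ENSG00000259133 near OTX2 were not called. OTX2-AS1, which overlaps OTX2 without sharing exon bases, was below the filter, at no more than 0.289 CPM. The setting for strand in the counting is not given in the sources used here, so reads from opposite strands may not be told apart over shared exons.

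The protein-coding genes most like each of the 5 were found by Pearson's r of log2 CPM across the 8 libraries, among 11163 genes with a mean of at least 5 CPM. The libraries fall into 4 groups, so these values follow the group means. ZIC5 was most like PRICKLE1, a planar cell polarity gene (r = 0.999), with log2 fold changes of 0.34 and -1.51 at 12 and 24 h, then ZNF549 (r = 0.991) and CHAMP1 (r = 0.986). OTX2 was most like the chemokine gene CXCL12 (r = 0.989), the pluripotency factor NANOG (r = 0.979) and ZNF84 (r = 0.976). ZIC2 was most like GNPAT (r = 0.994), NCKIPSD (r = 0.991) and GAPDH (r = 0.990). The closest to OTX1 were RAB32, NKAP and KCTD10 (r = 0.983 to 0.990) and to ZIC1 were FAM117B, DPY30 and LUC7L (r = 0.971 to 0.985). Among the 6, r was 0.92 between ZIC1 and ZIC2, 0.71 between OTX2 and ZIC5 and -0.43 between ZIC2 and ZIC5.

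Lists of genes that work in the same settings were set beside the family, with the counts over genes at a mean of at least 1 CPM over all libraries. Of the 16714 genes tested at this level, 36.7% were called at 12 h (17.7% higher, 19.0% lower) and 47.7% at 24 h (23.5% higher, 24.2% lower). In the primed pluripotency list, 10 of 15 genes rose and 1 fell at 12 h, and 6 rose and 4 fell at 24 h, with medians of 0.15 and 0.10 beside 0.00 over all genes at each time. NANOG and PRDM14, a repressor that keeps hESCs undifferentiated, had the order of OTX2. They were not alone in this, since 86 of the 20165 genes were called higher at 12 h and lower at 24 h, and 77 the reverse. SP8 of the anterior neural list below was also among the 86 (0.69 and -0.36). NANOG rose by 0.25 at 12 h (adjusted p = 0.00121) and fell by 0.25 at 24 h (adjusted p = 0.00108). PRDM14 had 60.0 and 70.8 CPM with anti-M8nAb at 12 h, against 48.2 and 53.5 CPM with IgG (log2 fold change 0.36, adjusted p = 0.000782). That call was lost without the first IgG library (0.29) or the second anti-M8nAb library (0.24). At 24 h PRDM14 had 30.1 and 25.6 CPM with anti-M8nAb, against 52.1 and 55.7 CPM with IgG (log2 fold change -0.95, adjusted p = 6.2e-12). SALL2 and DPPA4, like ZIC2, rose at both times, by 0.68 and 0.49 for SALL2 and by 0.33 and 0.32 for DPPA4 (adjusted p at most 5.43e-08).

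Of 10 anterior neural factors at this level, 6 rose and 2 fell at 12 h and 2 rose and 4 fell at 24 h, with medians of 0.60 and 0.35, beside the 36.7% and 47.7% of all genes called. LHX2, an eye field and forebrain factor, rose by 2.25 and 1.92 (adjusted p = 5.55e-07 and 4.57e-06), and POU3F1, which is tied to neural commitment, fell by 0.61 and 0.84 (adjusted p = 5.3e-08 and 8.87e-12). Of 3 midbrain and hindbrain factors, 1 rose at 12 h (IRX2, 0.59, adjusted p = 6.37e-06) and 1 fell at 24 h. That one was GBX2, which in mouse and chick opposes OTX2 at the midbrain-hindbrain boundary, and it had 1.02 and 0.487 CPM with anti-M8nAb, against 3.24 and 3.70 CPM with IgG (log2 fold change -2.19, adjusted p = 3.61e-06). Of 6 neural crest and plate border factors, 2 rose and 1 fell at 12 h and 4 rose and 1 fell at 24 h, with medians of 0.28 and 0.75, beside the same shares of all genes. SNAI1 rose by 1.09 at 24 h (adjusted p = 6.75e-07) and FOXD3 fell by 0.55 (adjusted p = 3.02e-05). Below 1 CPM, 3 of 4 anterior neural, 3 of 5 midbrain and hindbrain and 4 of 5 border factors past the filter were called higher at 12 h. Nothing is read from these counts, since such genes can pass the filter only through the group where they are high. A gene near 1 CPM can reach that level in the same way. With IgG at 12 and 24 h, LHX2 had means of 0.851 and 0.952 CPM and POU3F2 of 0.713 and 0.841 CPM. PAX6 had 1.01 and 0.553 CPM and SNAI2 0.69 and 0.796 CPM. These genes, all called higher at 12 h, reach the level through anti-M8nAb. GBX2, called lower at 24 h, reaches it through IgG, with 1.21 and 0.755 CPM with anti-M8nAb. Nothing is read from the counts of these lists either.

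The GLI proteins of the Hedgehog pathway share the zinc finger type of the ZIC proteins. Of 10 genes of the pathway at this level, 1 rose and 3 fell at 12 h and 0 rose and 2 fell at 24 h, with medians of -0.16 and -0.13, beside 36.7% and 47.7% of all genes called, so the count at 12 h was near that share and the one at 24 h below it. The receptor gene PTCH1 rose by 0.33 at 12 h (adjusted p = 0.00706), a call lost without the second IgG library (0.32) or the first anti-M8nAb library (0.25). The co-receptor gene GAS1 fell by 1.01 at 24 h (adjusted p = 6.14e-06). Of the 5 GLI and GLIS genes tested, 0 rose, and 1 fell at 12 h and 2 at 24 h. GLI2 fell by 0.26 at 24 h (adjusted p = 0.0252), a call lost without the second anti-M8nAb library (-0.06), the first IgG library (-0.24) or the second (-0.28). Of the 2 mesendoderm and organiser genes at this level, the Nodal and BMP antagonist gene CER1 rose by 1.65 and 3.24 (adjusted p = 1.47e-05 and 3.9e-14) and FOXA2, a factor of endoderm and floor plate, fell by 2.03 at 24 h (adjusted p = 5.42e-06). CER1 reaches the level through anti-M8nAb, since its means with IgG were 0.99 CPM at 12 h and 0.995 CPM at 24 h.

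**Figure D4:**
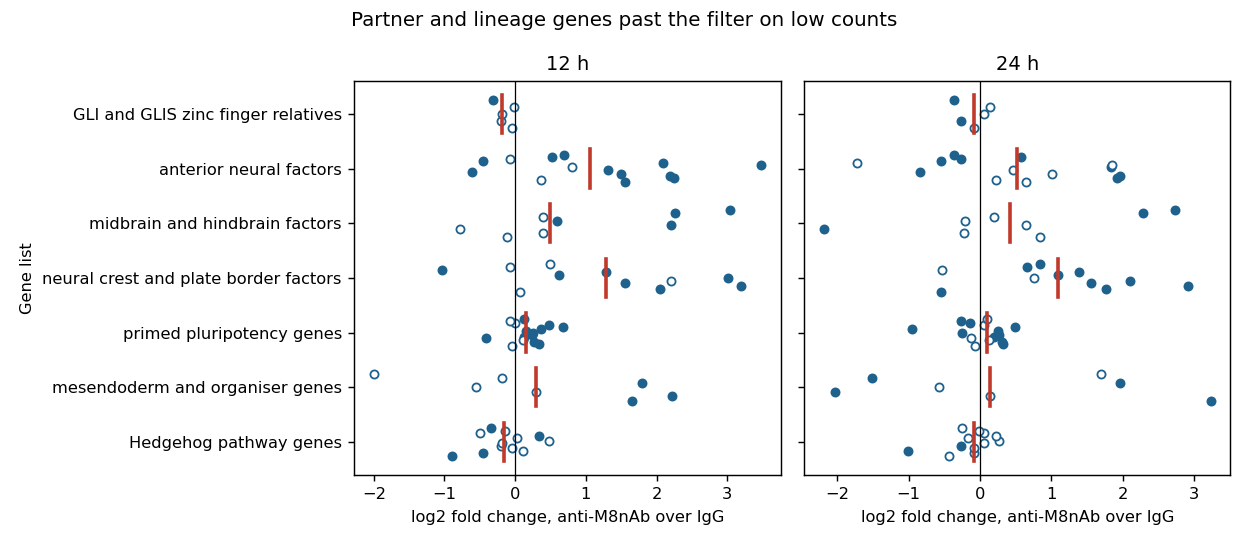
Log2 fold change of anti-M8nAb over IgG for each gene of 7 lists past the filter on low counts, at 12 h (left) and 24 h (right). Filled points were called, open points were not, and red bars are list medians, here over all genes of a list past the filter. The medians of the primed pluripotency genes lie close to 0 (0.15 and 0.10), with single genes from PRDM14 at -0.95 (24 h) to SALL2 at 0.68 (12 h), and POU3F1 lies at -0.61 and -0.84 among the anterior neural factors.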

How the data were processed

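RNA sequencing was available for 8 libraries of BG01 hESCs, 2 per group, and groups came from the labels. According to the study's methods, reads were trimmed (Trimmomatic), mapped to GRCh38.p14 by 2-pass STAR, freed of duplicates (Picard) and assigned to Ensembl genes by HTSeq, and FastQC 0.11.9 is among the tools in the submitters' notes. One deposited file gives the authors' counts, another their FPKM from RNAnorm. Of the 62086 gene identifiers, 61100 matched GENCODE v44 with their version, among them all 6 genes described, and all matched without it. The 1005 lines with a blank gene name were left out. Of these, 1000 held 0.192 to 0.21% of a library's counts, and the largest of the last 5 held 49.3 to 50.2% of all counts of a library. Both files hold 4 further columns that belong to no sample here and were not used.

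Counts past edgeR's filter on low counts (20165 genes) were scaled by TMM and fitted with a mean per group over all 8 libraries (edgeR 4.0.16, R 4.3.3, two-sided quasi-likelihood F test, Benjamini-Hochberg adjustment over all genes tested). The common biological coefficient of variation was 5.53%, and replicates varied 2.28 to 4.50 times as much as counting alone, so no library repeats another. Log2 CPM used a prior count of 2. Exact intervals at 95% and floors cover counting error only, since molecules were not tagged. The genes and lists were chosen with earlier results of these data known. Besides the 6 genes and CRX, the text names up to 4 genes per list and time with the smallest adjusted p among called genes at a mean of at least 1 CPM with libraries apart, neighbours within 100 kb at a mean of at least 1 CPM, and the 3 genes most like each gene. Some results are not reported here. The scripts were tested on simulated data. The alternatives were DESeq2 1.42.0, its size factors, no filter or a mean of at least 1 CPM, each time alone, the replicate number as a block, each library left out, limma 3.58.1 on log2(FPKM + 1) or log2(FPKM + 0.1) for genes at a mean FPKM of at least 0.5, and an offset for GC content.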

Additional observations from a re-analysis of the deposited data

Results flagged for a closer look

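The response to anti-M8nAb at 24 h minus that at 12 h is given on the log2 scale for the 6 genes and the genes named by the rule for lists, wherever the contrast of the responses was called in the fit over all genes. Among the 6 genes it was -1.24 for OTX2 and -1.16 for ZIC5, which were chosen with this pattern known and carry no test. Among the other genes PRDM14 stood at -1.32, FOXA2 at -2.33, GAS1 at -1.12, IRX2 at -0.80, FOXD3 at -0.62, SALL4 at -0.43 and SALL2 at -0.19. The difference was positive for CER1 (1.59) and for SOX9 (0.74), a neural crest and endoderm factor. The calls of SALL2 (with any 1 library left out, -0.23 to -0.16), SOX9 (0.72, 0.67 and 0.59 in the lost calls) and CER1 (1.32 without the second IgG library at 12 h) were lost with a library left out.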

How the results depend on the processing

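No called fold change of the 6 genes or the other genes named by rule changed sign under any alternative run. Of 409 values of the 5 genes under the alternatives, 388 kept their side of the threshold. With DESeq2, ZIC1 at 12 h (1.51), ZIC1 at 24 h (1.29) and OTX1 at 24 h (0.89) were no longer called, which left 3 of the 6 genes called at 24 h, and 1652 genes were called for the difference of the responses, beside 2486. Without a filter, ZIC5 at 12 h (0.19) and ZIC1 at 24 h (1.27) lost their calls, and 1228 genes were called for the difference and 1416 for IgG 24 h versus 12 h, beside 2753. On log2(FPKM + 1) and log2(FPKM + 0.1) only OTX2, ZIC2 and ZIC5 were tested. There ZIC5 at 12 h (0.13 in each) was not called, which left 2 of 3 called at 12 h and 3 at 24 h. The difference was called for 919 and 896 genes and IgG 24 h versus 12 h for 766 and 683.

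With 1 library left out, the genes called ran from 4241 to 6644 at 12 h (4241 without the first IgG library), from 6947 to 8816 at 24 h, from 1452 to 2197 for the difference, from 928 to 2929 for IgG 24 h versus 12 h and from 4609 to 6577 for anti-M8nAb 24 h versus 12 h. The called among the 6 genes ran from 2 to 4 at 12 h, from 3 to 5 at 24 h and from 2 to 3 for anti-M8nAb 24 h versus 12 h. The log2 fold changes ran from 0.45 to 0.92 at 12 h and 0.75 to 1.03 at 24 h for OTX1, from 1.21 to 1.88 at 12 h and 0.87 to 1.60 at 24 h for ZIC1, from 0.17 to 0.22 at 12 h for ZIC5, and from -0.20 to -0.13 between the times with anti-M8nAb for ZIC2.

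Samples with the same replicate number did not visibly deviate together (r of -0.037 to 0.027 across 20165 genes between groups), and the numbers were not used to pair them. Counting error in genes with few counts pulls such an r towards 0, so a pairing is not excluded. With the replicate block 6421 genes were called at 12 h and 8496 at 24 h, and no call of the 6 genes changed. With the block and the GC offset together, ZIC1 at 24 h (1.24) was no longer called. Depth limits OTX1, ZIC1 and ZIC4, where 3 counts equal 0.132 to 0.147 CPM.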
